A study of Rattus norvegicus with 20 samples.

Results

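The spindlin-like family of the rat genome was followed on 20 one-colour arrays of neonatal heart cells. Its members were chosen by the text that the array design gives each probe, a single spotted sequence of 60 bases that captures 1 transcript or several near-identical ones: all non-control probes described as spindlin-like were taken. These were 51 of 41012 probes, and they name 46 genes. The family was selected on its signal after 6 h at the highest concentration. Values of that group against the untreated group are therefore a description, and no test result there is read as evidence. The same holds for every comparison that uses the untreated arrays or the arrays of that group. Primary cultures from neonatal rat heart, labelled as cardiomyocytes and grown for 1 day, were left untreated (2 arrays) or exposed to diclofenac, an anti-inflammatory drug and cyclooxygenase inhibitor. The drug was given at a reference concentration, written 1, or at 1/5 or 1/25 of it, for 6 h or for 24 h, with 3 arrays in each of the 6 treated groups. The molar value of concentration 1 and the vehicle are not stated in the labels, and no untreated array is labelled with a time. They do not say whether replicates came from separate cultures, so a p-value here reflects the spread between these samples alone, and that spread may be technical.

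Spindlins are small chromatin proteins built from repeated Tudor-like domains. SPIN1, the best studied, binds histone H3 trimethylated at lysine 4, a mark of active promoters, and is abundant in oocytes. In mouse, related genes on the X and Y chromosomes, among them Ssty and Sstx, exist in many near-identical copies and are transcribed in spermatids after meiosis. Such multicopy genes are difficult to place on a genome assembly and difficult to tell apart by hybridisation.

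The files place 42 of the 51 probes on unplaced sequence (chromosome Un) of rat genome build rn3 and 2 on its random part. A further 3 lay on chromosome 9, 2 on chromosome X, 1 on chromosome 16 and 1 on the random part of chromosome 2. For 36 probes the files list more than 1 transcript or cluster identifier, and for 25 they list 4. For 18 probes the listed identifiers include the transcript of another gene of the family. Few of the gene identifiers were found in the current annotation, where they were looked up by identifier and name alone. Of the 51 probes, 2 had theirs in the RefSeq gene table of assembly GRCr8. These were RGD1560898, as Spin2a on chromosome X, and LOC367333, as Spin2l-ps1, a pseudogene. Whether the other gene models persist under other names was not tested. How far a probe reads other copies was not tested, and each gene name below stands for a probe.

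The sequences of the probes were set against each other, because near-identical copies were the question for this family. Probes were joined when their best matching run without gaps scored at least 16 (1 for a match, -2 for a mismatch), and 41 of the 51 fell into 3 stretches of shared sequence. Stretch A spanned 217 bases and held 21 members, stretch B spanned 173 bases and held 13, and stretch C spanned 120 bases and held 7. In 1 locus of chromosome Un with probes of both kinds, those of stretch C came before that of stretch B on the transcribed strand. Joined pairs of measured members were identical at 82.1% to 100% of the matched bases, with a median of 93.1% over 110 pairs.

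From stretch A, 3 probes that start within 1 base of each other are shown because they include a member past the threshold in the comparison that chose the family. All sequences are probe sequences read 5′ to 3′ from the scanner files, and capitals mark the bases that differ from the first probe of the set in the overlap.
LOC291521 (A_44_P194679, chrUn:15913891-15913950, minus strand): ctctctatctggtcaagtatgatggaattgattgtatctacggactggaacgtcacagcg
LOC291510 (A_44_P319128, chrUn:54270456-54270515, plus strand): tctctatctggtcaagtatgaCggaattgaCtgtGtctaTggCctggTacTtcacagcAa
LOC301891 (A_44_P222733, chrUn:8589514-8589573, minus strand): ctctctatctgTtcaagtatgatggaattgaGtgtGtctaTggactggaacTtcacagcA
The probe of LOC291510 differed from that of LOC291521 at 8 of 59 overlapping bases and that of LOC301891 at 6 of 60.

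From stretch B, 3 probes are shown, since they include 1 of the 3 smallest fitted changes.
LOC301839 (A_44_P178278, chrUn:28192313-28192372, minus strand): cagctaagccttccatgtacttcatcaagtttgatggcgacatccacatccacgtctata
LOC302137 (A_44_P417353, chrUn:1238668-1238727, plus strand): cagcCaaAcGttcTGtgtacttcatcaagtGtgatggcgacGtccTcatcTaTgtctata
LOC288640 (A_44_P400965, chrUn:20163121-20163180, minus strand): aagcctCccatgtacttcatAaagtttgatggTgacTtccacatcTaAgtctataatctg
The probe of LOC302137 differed from the first at 10 of 60 bases, and that of LOC288640 at 6 of 55.

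Stretch C is shown because 2 probes of the same gene, LOC367632, gave different fitted changes from nearly the same letters.
LOC367632 (A_44_P239084, chrUn:28949287-28949346, minus strand): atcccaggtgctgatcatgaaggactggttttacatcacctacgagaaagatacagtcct
LOC367582 (A_44_P914086, chr16:27757512-27757571, minus strand): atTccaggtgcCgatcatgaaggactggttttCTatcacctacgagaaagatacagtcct
LOC367632 (A_44_P405640, chrUn:28949264-28949323, minus strand): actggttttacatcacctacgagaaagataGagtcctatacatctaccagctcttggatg
The second probe of LOC367632 starts 23 bases after the first and differs from it at 1 of 37 overlapping bases. LOC367582 differs at 4 of 60.

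Signals are log2 values of the processed scanner signal relative to the 75th percentile of the same array, so that negative values lie below that percentile. Between 64.1% and 88.2% of spots on an array were well above background. Precision is limited by the number of arrays. The array of concentration 1/5 for 24 h replicate 3 had the lowest share and the lowest 75th percentile, 3165 signal units against 9623 to 21937 on the other 19. The arrays lay on 6 slides scanned on 3 days. Slide 1 held both untreated arrays and 2 of concentration 1 for 6 h, slide 2 held the third together with the 3 of concentration 1/5 for 6 h, and slide 5 held the 3 of concentration 1/5 for 24 h and 1 of concentration 1/25 for 24 h. The 3 of concentration 1 for 24 h lay on slide 4. At each concentration the 24 h arrays shared no slide with the 6 h arrays or with the untreated arrays. In those comparisons time or treatment cannot be told apart from slide. The arrays of 1/25 for 6 h lay on slides 3 and 4, scanned on another day than slides 1 and 2. At 24 h concentration 1 shared no slide with 1/5 or 1/25. There, and for 1/25 at 6 h against untreated cultures or higher concentrations, concentration cannot be told apart from slide. All 13 cardiomyocyte markers were measured, and all 13 were well above background on every array outside the group of concentration 1/5 for 24 h, where 12 were. The log2 of their summed signals was 4.32 to 4.50 in untreated cultures and 4.30 to 4.37 at concentration 1 for 6 h. This measure, called the summed level here and below, is set mostly by the brightest probes of a list. Markers of fibroblasts were also present, with all 8 measured and summed levels of 3.93 to 4.15 and 3.75 to 4.12 in the same groups. At concentration 1/5 for 24 h the summed levels were 4.70 to 6.66 for cardiomyocyte and 4.09 to 6.37 for fibroblast markers. That group holds the array with the lowest 75th percentile, to which its signals are scaled. The part of this scaling in the summed levels was not tested. There 5 of the 8 fibroblast markers were well above background on every array. Between 4.93% and 10.8% of spots on an array were saturated, and how far this caps the summed levels was not tested. Fewer cells of a type and less RNA per cell cannot be told apart in such cultures.

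A probe was measured, and entered the fit, when some group had it well above background on each of its arrays. This kept 44 of the 51 members, of which 2 lacked a value on 1 array because the scanner marked the spot as an outlier, and the fit used their other 19 arrays. The other 7 (LOC367568, RGD1565862, LOC301870, LOC307315, LOC301968, LOC304436 and LOC367333, named for completeness) were well above background on 0 to 5 of the 20 arrays. Of the 44, 18 were kept only through the group of concentration 1 for 6 h, the group that chose the family, so they had to be higher there. On neither untreated array were 21 of the 44 distinguishable from background by the scanner's test, while all 44 were on every array of concentration 1 for 6 h. Over all 51 members, the number well above background was 22 and 19 on the untreated arrays and 45 to 47 at concentration 1 for 6 h. It was 24 to 42 at concentration 1/5 and 16 to 33 at 1/25 for 6 h, and at 24 h it was 26 to 30, 15 to 21 and 17 to 31 at concentrations 1, 1/5 and 1/25.

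After 6 h at concentration 1, the spindlin-like signals were higher than in untreated cultures over most of the measured members. The median log2 change was 1.83, with a range of -0.25 to 4.42, and 42 of 44 lay above 0. These are fitted values. For the 21 members at background, that is not well above it, on both untreated arrays only an approximate lower bound of the fold is measured. With those 21 at their bound, the median was 1.59. Over all 35063 probes measured, the median was 0.02. A log2 change over 1 was found in 32 of the 44, against 4.22% of all probes, and in 35 of the 44 all 3 treated arrays lay above both untreated arrays, against 15% of all probes. By limma with Benjamini-Hochberg adjustment over all probes, 2 of the 44 were past an adjusted p of 0.05 and higher, against 0.00856% of all probes. The 2 members were LOC301816 and LOC291521, both kept only through concentration 1 for 6 h. That share of all probes is 3 probes, with these 2 among them. Of the members, 0 passed when either untreated array was left out or with normexp background correction. These counts describe the comparison the family was chosen from, and nothing is read from them.

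By array, the median difference of the 44 measured members from the mean of the untreated pair was 1.78, 1.57 and 1.90 at concentration 1 for 6 h. At concentration 1/5 for 6 h it was 0.97, -0.03 and 0.31, and at 1/25 for 6 h 0.36, -0.94 and 0.36. The 3 arrays of the highest concentration lay above all 6 of the lower ones at this time. At 24 h the medians were -0.28, -0.42 and -0.26 at concentration 1. They were -0.47, -0.38 and 1.02 at 1/5, and -0.72, 0.11 and -0.20 at 1/25. The one high value at 24 h belonged to the array of lowest signal, on which 15 of the 51 members were well above background.

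**Figure D1:**
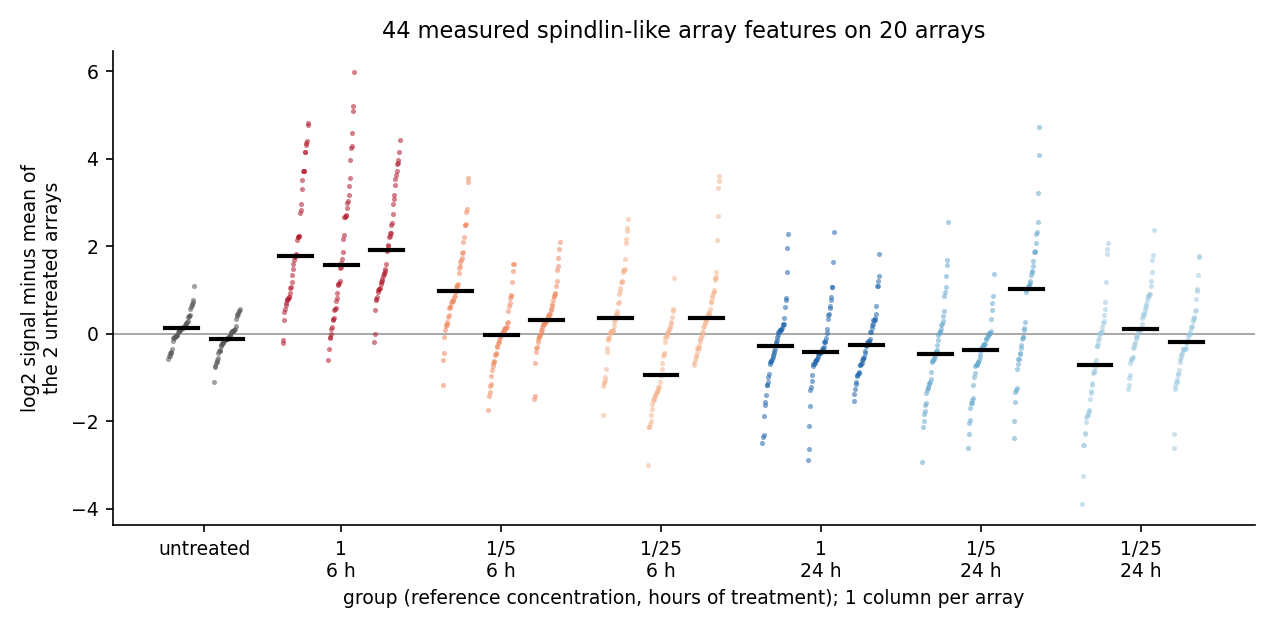
Each point is 1 of the 44 measured members on 1 array, as its log2 signal minus its mean on the 2 untreated arrays, and black bars are array medians; columns are the 20 arrays by group. The 3 arrays of concentration 1 at 6 h have medians of 1.57 to 1.90, and the next highest median, 1.02, is that of the array with the lowest signal.

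The fitted change varied with the stretch of sequence a probe covers. In stretch A the 20 measured members had changes of 1.08 to 4.42, with a median of 2.85, and all 20 exceeded 1. In stretch B the 12 measured members ranged from 0.36 to 2.27, median 1.20, with 7 over 1. The 6 of stretch C ranged from -0.25 to 2.95, median 1.09. The 6 measured members outside the stretches had a median of 0.85 and included LOC301818 at 3.39 ± 1.18 (SE) and LOC316851 at 3.37 ± 1.42 (SE), the latter at least 4.62-fold. Detection moved with the stretch: 13 of the 20 in stretch A were at background on both untreated arrays, against 4 of 12 in stretch B and 2 of 6 in stretch C, and the part of this in the difference between stretches was not tested. With such probes at their bound, the medians were 2.30 in stretch A, 1.20 in B and 0.97 in C. Of the 20 in stretch A, 12 were kept only through concentration 1 for 6 h. Over members that 2 or more groups had well above background on each of their arrays, the medians were 1.91 for 8 in stretch A, 1.21 for 10 in B and 0.80 for 4 in C.

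**Figure D2:**
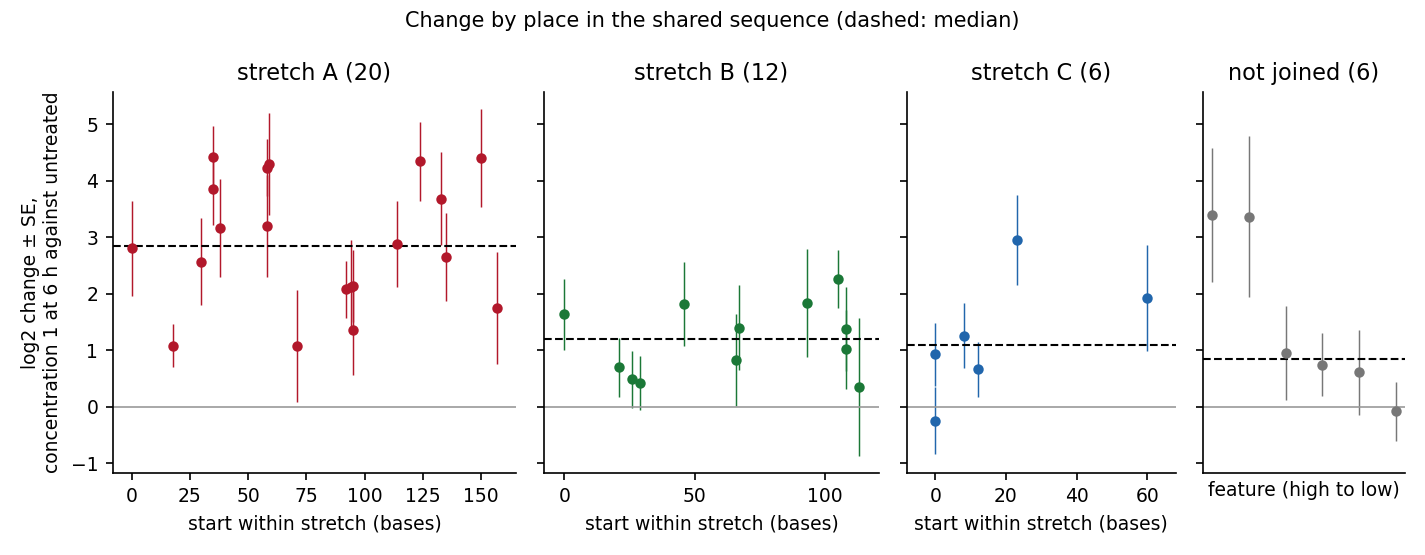
Fitted log2 change ± SE at concentration 1 for 6 h against untreated cultures, plotted by the start of each probe within its stretch of shared sequence, in bases; dashed lines are medians. The medians are 2.85 in stretch A, 1.20 in stretch B and 1.09 in stretch C, and values within stretch A spread from 1.08 to 4.42; with probes at background in untreated cultures set at their bound, the median of stretch A is 2.30.

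The 6 members with the highest fitted changes are given first. All are of stretch A and were at background on both untreated arrays, so their order among the members is not measured. LOC301891 (at least 8.15-fold) and the second probe of LOC301926 (at least 7.79-fold), described further on, had higher bounds than any of the 6. LOC301816 (A_44_P112442, chrUn:28602374-28602433) had log2 signals of -7.77 and -8.03 in untreated cultures and -3.09, -3.62 and -3.74 at concentration 1 for 6 h. Its signals at 6 h were -5.39, -6.32 and -5.81 at 1/5 and -5.48, -7.34 and -6.61 at 1/25. At 24 h they were -7.13, -7.47 and -6.80 at concentration 1, -6.95, -8.24 and -6.48 at 1/5 and -7.83, -6.81 and -7.38 at 1/25. The 3 arrays of concentration 1 for 6 h were the highest of the 20, and at 6 h the probe was well above background on 2 arrays of 1/5 and 1 of 1/25. The change against untreated cultures was 4.42 ± 0.55 (SE), a signal at least 5.82-fold higher. This bound sets the treated mean against the higher of the probe's own untreated signal and the lowest signal well above background on each untreated array, as do all such bounds below. A probe at background can lie above that lowest signal, as LOC367471 did in untreated cultures (mean -5.65), so all such bounds are approximate.

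LOC291521, whose probe opens the first set of sequences above, had signals of -7.92 and -8.17 in untreated cultures against -4.32, -2.96 and -4.15 at concentration 1 for 6 h. At the lower concentrations for 6 h the signals were -7.97, -7.92 and -8.24 and -6.59, -7.92 and -7.06. At 24 h they were -8.49, -8.45 and -8.57 at concentration 1, -7.95, -8.28 and -6.70 at 1/5 and -7.76, -8.59 and -8.51 at 1/25. The probe was well above background on the 3 arrays of concentration 1 for 6 h and on no other array. Its change was 4.24 ± 0.50 (SE), at least 4.64-fold higher. LOC291510, with 8 differing bases, had -7.83 and -8.06 in untreated cultures and -3.60, -3.35 and -3.98 at concentration 1. Its signals were -8.03, -7.82 and -8.26 at 1/5 and -6.47, -7.78 and -8.11 at 1/25 for 6 h. At 24 h concentration 1 gave -5.67, -8.38 and -8.67, 1/5 gave -7.90, -8.18 and -4.73 and 1/25 gave -7.78, -7.35 and -8.32, with 1 of these 9 arrays well above background, at concentration 1. The change at concentration 1 for 6 h was 4.30 ± 0.90 (SE), at least 5.21-fold higher.

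LOC301926 (A_44_P485440, chrUn:22576750-22576809) varied more between arrays of a group. Its signals were -7.67 and -7.74 in untreated cultures and -3.56, -1.73 and -4.62 at concentration 1 for 6 h, then -4.85, -6.11 and -6.15 at 1/5 and -6.51, -7.46 and -4.10 at 1/25. At 24 h concentration 1 gave -6.29, -6.06 and -6.38, 1/5 gave -6.64, -8.18 and -6.69 and 1/25 gave -7.71, -6.82 and -6.36. One array of 1/25 for 6 h exceeded the lowest array of concentration 1, so these 2 groups overlapped. The change was 4.40 ± 0.87 (SE), at least 6.59-fold higher. LOC302005 (A_44_P400977, chrUn:43773716-43773775) had -7.71 and -7.87 in untreated cultures and -3.48, -2.58 and -4.26 at concentration 1 for 6 h, against -5.58, -7.78 and -7.11 at 1/5 and -5.72, -7.78 and -7.55 at 1/25. Its 24 h signals were -7.98, -8.23 and -8.69 at concentration 1, -6.48, -8.17 and -6.67 at 1/5 and -7.78, -7.71 and -7.80 at 1/25. Here the 3 arrays of concentration 1 for 6 h stood above the other 17, with a change of 4.35 ± 0.70 (SE), at least 6-fold. LOC301966 (A_44_P201675), whose probe the files spread over chrUn:20585702-20586618, gave -7.99 and -6.95 in untreated cultures and -3.08, -3.92 and -3.85 at concentration 1 for 6 h. The lower concentrations for 6 h gave -5.92, -7.96 and -7.49 and -6.01, -7.09 and -7.04, and 24 h gave -8.40, -7.37 and -8.62, -7.86, -8.19 and -6.42 and -7.44, -6.84 and -7.53 at concentrations 1, 1/5 and 1/25. The change was 3.85 ± 0.64 (SE), at least 5.31-fold, again with no overlap between concentration 1 for 6 h and any other group.

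**Figure D3:**
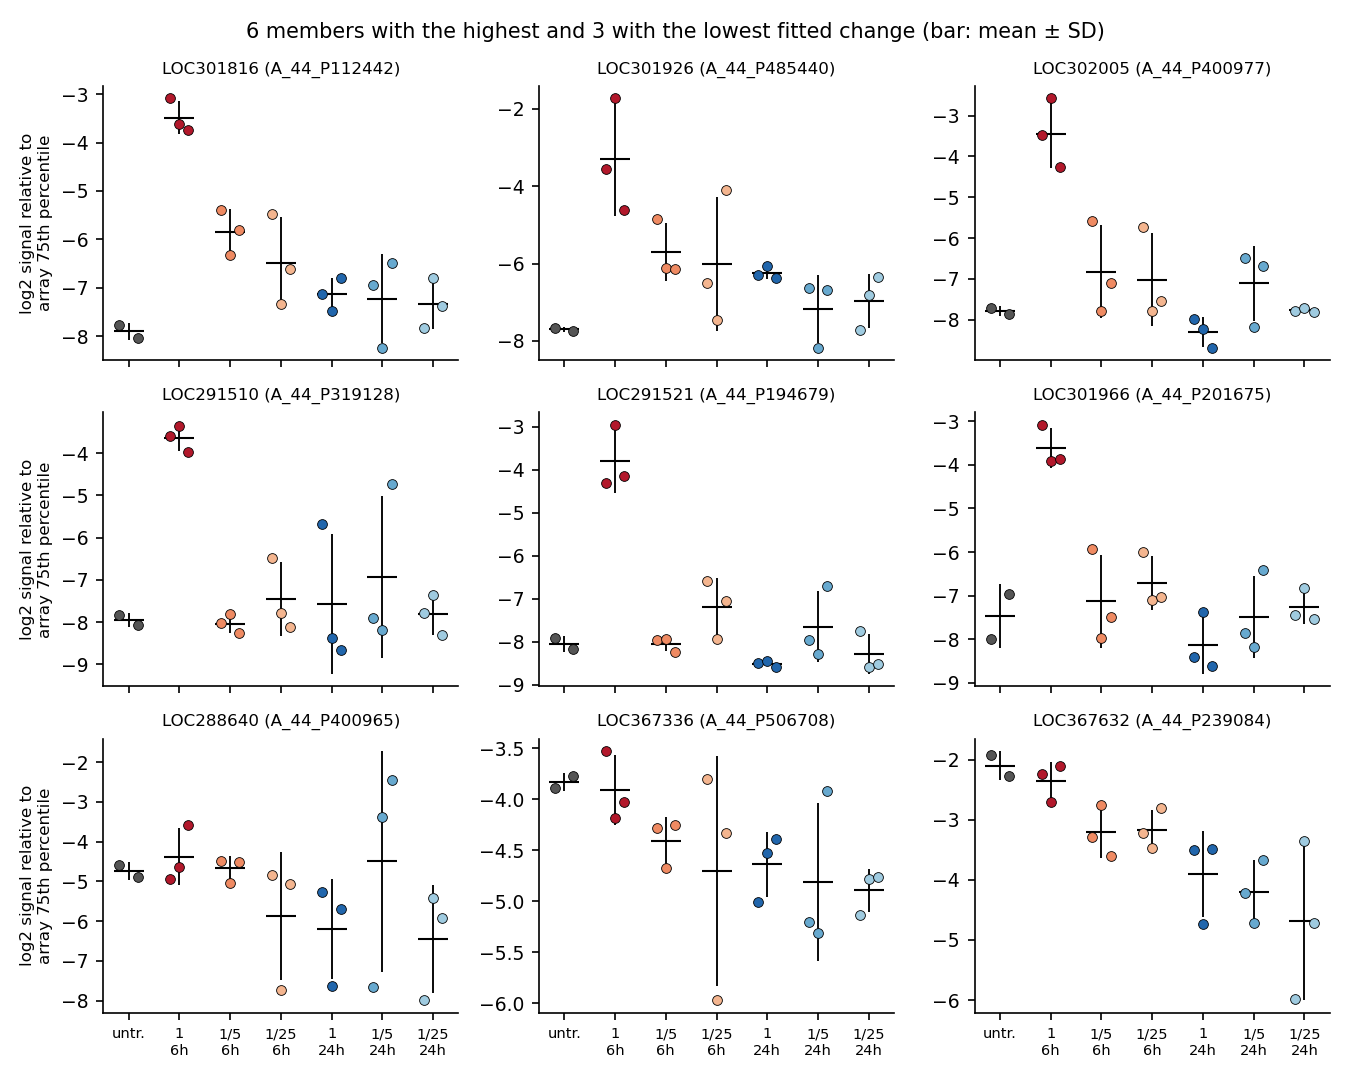
Log2 signal relative to the array's 75th percentile for the 6 members with the highest and the 3 with the lowest fitted change at concentration 1 for 6 h; points are arrays and bars the mean ± SD of a group (n = 2 untreated, n = 3 in the other groups). The upper 6 panels peak at concentration 1 for 6 h, with changes of 3.85 to 4.42, and the lower 3 do not, with changes of -0.25 to 0.36.

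The 3 lowest changes belonged to probes that were well above background in untreated cultures. LOC288640 of stretch B had -4.58 and -4.89 in untreated cultures and -4.95, -4.63 and -3.57 at concentration 1 for 6 h, then -4.48, -5.04 and -4.50 at 1/5 and -4.84, -7.73 and -5.06 at 1/25. At 24 h it gave -5.27, -7.62 and -5.70, -7.66, -3.37 and -2.46 and -7.99, -5.42 and -5.93 at concentrations 1, 1/5 and 1/25. The groups overlapped, and the change was 0.36 ± 1.22 (SE). LOC367336 on chromosome 9 (A_44_P506708, chr9:105520280-105520339) had -3.89 and -3.77 in untreated cultures and -3.53, -4.18 and -4.03 at concentration 1 for 6 h, with -4.28, -4.68 and -4.26 at 1/5 and -3.81, -5.97 and -4.33 at 1/25. At 24 h the signals were -5.0, -4.52 and -4.39, -5.20, -5.31 and -3.92 and -5.13, -4.78 and -4.76 in the same order of concentration. Its change was -0.08 ± 0.53 (SE), and untreated arrays lay within the treated range.

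The first probe of LOC367632 went lower over the groups. It gave -1.93 and -2.27 in untreated cultures, -2.25, -2.70 and -2.10 at concentration 1 for 6 h, -3.28, -2.76 and -3.60 at 1/5 and -3.21, -3.47 and -2.81 at 1/25. At 24 h its signals were -3.50, -4.74 and -3.49, -4.23, -4.71 and -3.66 and -5.99, -3.36 and -4.71 at concentrations 1, 1/5 and 1/25. Both untreated arrays lay above every array of the 5 groups other than concentration 1 for 6 h. The second probe, which shares 36 of 37 overlapping letters with it, had -7.84 and -8.08 in untreated cultures and -5.21, -5.24 and -4.56 at concentration 1 for 6 h. The changes of the 2 probes were -0.25 ± 0.59 (SE) and 2.95 ± 0.80 (SE), and that of the third probe of this gene was 1.93 ± 0.93 (SE). The first was well above background on both untreated arrays and the other 2 on neither, so their folds are bounds, at least 2.03-fold and at least 3.61-fold.

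In all, 4 genes had several probes. For LOC301816 the second probe (A_44_P511262), well above background on 1 untreated array, had a fitted change of 2.12 ± 0.83 (SE), and the first is given above. The 2 probes of LOC301926 were at background on both untreated arrays, with bounds of at least 6.59-fold and at least 7.79-fold and fitted changes of 4.40 and 3.17 ± 0.87 (SE). Those of LOC301944, in stretches A and B, were at background too, with bounds of at least 6.22-fold and at least 2.9-fold and fitted changes of 2.81 ± 0.84 (SE) and 1.82 ± 0.74 (SE). The difference between probes of a gene was not tested. Among 43 joined pairs that match over 40 or more bases, the median gap between the 2 fitted changes was 0.98 and the largest 3.23.

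The 3 brightest members were well above background on all 20 arrays. RGD1560898, now Spin2a, is the one protein-coding member found in the current annotation (A_44_P443328, chrX:37663149-37663208). It had 1.49 and 0.03 in untreated cultures and 1.51, 1.30 and 1.70 at concentration 1 for 6 h, with 1.46, 0.29 and 1.16 at 1/5 and 1.21, 1.03 and 0.34 at 1/25. At 24 h it gave 0.36, 0.12 and 0.50, 1.15, 0.71 and 2.82 and 1.32, 0.82 and 0.94 at concentrations 1, 1/5 and 1/25. One untreated array matched the treated ones and the other was the lowest of the 20, and the change was 0.75 ± 0.56 (SE). LOC302095 (A_44_P124104) had -0.64 and -1.84 in untreated cultures and -0.68, -1.32 and 0.12 at concentration 1 for 6 h. It gave -0.63, -2.66 and -1.33 at 1/5 and -1.40, -2.53 and -1.37 at 1/25 for 6 h, and -1.83, -1.57 and -1.95, -2.54, -1.23 and -3.61 and -2.41, -0.33 and -2.08 at 24 h in the same order. These groups overlapped, with a change of 0.61 ± 0.75 (SE).

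LOC316825 (A_44_P297763, chrUn:70391061-70391120), in stretch A, was the one of the 44 whose signal was not lower at 24 h than at 6 h with concentration 1. It had -3.81 and -3.60 in untreated cultures, -2.63, -1.02 and -2.23 at concentration 1 for 6 h and -1.74, -1.39 and -1.88 at concentration 1 for 24 h. At 1/5 it gave -2.19, -2.26 and -2.80 at 6 h and -2.03, -4.00 and -1.16 at 24 h, and at 1/25 -4.76, -4.15 and -0.21 and -3.98, -4.71 and -4.02. Against untreated cultures the change was 1.74 ± 0.99 (SE) at 6 h and 2.03 ± 0.99 (SE) at 24 h with concentration 1, and all 6 of these arrays exceeded both untreated ones.

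Values within slides are a description, since they use arrays that chose the family, and the shares of all probes above 0 are not given. On slide 1, which held both untreated arrays and 2 arrays of concentration 1 for 6 h, the median difference of the 44 measured members was 1.64, with 41 above 0, and 0.03 over all probes. On slide 2 the single array of concentration 1 for 6 h exceeded the mean of the 3 arrays of concentration 1/5 in 44 of 44 members. The median was 1.11, against 0.05 over all probes. The part of slide in the family's difference was not tested. The 8 arrays of these 3 groups were all on slides 1 and 2, which were scanned on 1 day.

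The other treated groups stood closer to the untreated pair. Their median changes over the 44 measured members were 0.34 at 1/5 and 0.01 at 1/25 for 6 h. At 24 h they were -0.38, -0.11 and -0.31 at concentrations 1, 1/5 and 1/25, where all probes had medians of -0.12, -0.19 and -0.20. In none of these 5 comparisons was a member past the limma threshold, against 0% and 0% of all probes at 6 h and 0%, 0.148% and 0.00285% at 24 h. In the same order, 3, 1, 1, 2 and 2 members had an unadjusted p under 0.05, or 6.82%, 2.27%, 2.27%, 4.55% and 4.55%. The shares of all probes under that limit were 1.10%, 1.20%, 4.75%, 30.0% and 14.3%. Against the lower concentrations at 6 h, all 44 signals at concentration 1 were higher. The median was 1.10 against 1/5 and 1.88 against 1/25, with all-probe medians of 0.04 and 0.12. LOC291521 was past the threshold in both, as 1 of 44 members against 0.0057% and 0.0171% of all probes, but 0 members passed in several alternatives. Against 1/5 these were normexp, slide as a fixed block and the filter for 2 groups. Against 1/25 they were quantile normalization, median scaling, the deposited table, a fit of only the groups compared, the filter for 2 groups, and leaving out replicate 2 or 3 of concentration 1 for 6 h or replicate 2 of 1/25. These comparisons share arrays with the one that chose the family, so no test is drawn from them. By stretch, the median against 1/5 was 2.43 in A, 0.50 in B and 0.73 in C.

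At concentration 1 the signals were lower at 24 h than at 6 h. The 6 h arrays lay on slides 1 and 2 and the 24 h arrays on slide 4, scanned on another day. Time cannot be told apart from slide and scan day here. The median change was -1.92 over the 44 measured members, 35 were lower by more than 1 against 17% of all probes, and in 41 all 3 arrays at 24 h lay below all 3 at 6 h, against 23.8% of all probes. The all-probe median was -0.12. With the 11 members that were at background on all 3 arrays at 24 h set at their bound, the members' median was -1.78. By stretch the fitted medians were -3.24 in A, -1.37 in B and -1.42 in C. Past the threshold were 9 members, all lower and all of stretch A, against 0.191% of all probes for lower calls. Of these 9, 8 were kept only through concentration 1 for 6 h, the group that chose the family, and were at background on all 3 arrays at 24 h. Over the 26 members that 2 or more groups had well above background on each of their arrays, 1 passed, against 0.0737% of all probes under that filter for lower calls. Without single arrays 4 to 7 passed, the fewest without replicate 2 or 3 of concentration 1 for 24 h. The shares of all probes in those fits are not given, so these counts show only that fewer than 9 members passed. With array weights 40 did, where 29.1% of all probes passed as lower. Since the arrays at 6 h chose the family, this is again a description.

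Of those 9, LOC301816, LOC302005, LOC291521 and LOC301966 are given above, with signals at 6 h at least 7.82-fold, 8.06-fold, 6.24-fold and 7.13-fold higher than at 24 h. LOC301886 (A_44_P210985) had -2.94, -5.86 and -3.30 at 6 h and -8.35, -8.15 and -8.66 at 24 h with concentration 1. Its signals were -7.76 and -7.68 in untreated cultures, -5.62, -7.80 and -6.51 and -5.38, -7.91 and -6.78 at 1/5 and 1/25 for 6 h, and -7.86, -7.70 and -6.76 and -7.83, -6.94 and -8.30 at 24 h. The signal at 6 h was at least 5.33-fold higher than at 24 h, although 1 array at 6 h, at -5.86, lay far below the other 2. LOC301891 (A_44_P222733) gave -4.00, -1.96 and -3.04 at 6 h and -6.09, -8.31 and -6.80 at 24 h with concentration 1, beside -6.06 and -6.35 in untreated cultures. Its other groups were -5.38, -6.64 and -5.67 and -5.02, -7.53 and -4.99 at 6 h and -7.09, -6.28 and -6.28 and -7.96, -5.52 and -8.50 at 24 h, at 1/5 and 1/25. The signal at 6 h was at least 10.3-fold higher than at 24 h.

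The second probe of LOC301926 (A_44_P426870) had -2.93, -2.26 and -4.01 at 6 h and -7.39, -7.89 and -7.50 at 24 h, beside -6.16 and -6.30 in untreated cultures. At 1/5 and 1/25 it gave -5.27, -7.97 and -5.78 and -5.18, -7.96 and -6.26 at 6 h and -6.86, -8.20 and -6.81 and -7.37, -5.32 and -7.50 at 24 h. It was at background on all 3 arrays at 24 h and on both untreated arrays, and the signal at 6 h was at least 10.5-fold higher than at 24 h. LOC689958 (A_44_P204016) gave -3.01, -2.58 and -3.66 at 6 h and -8.28, -7.20 and -7.06 at 24 h, beside -6.31 and -5.63 in untreated cultures. The 1/5 and 1/25 groups gave -4.90, -5.99 and -5.78 and -5.70, -7.19 and -6.24 at 6 h and -7.12, -7.57 and -4.76 and -7.82, -7.14 and -5.62 at 24 h. The signal at 6 h was at least 10.3-fold higher than at 24 h, when the probe was again at background. LOC298817 (A_44_P185115, on the random part of chromosome 2) was the one of the 9 detected widely, on 19 of 20 arrays. It had -3.56, -1.54 and -1.87 at 6 h, -4.32, -4.84 and -5.28 at 24 h and -4.42 and -4.38 untreated. The 1/5 and 1/25 groups gave -4.99, -5.36 and -4.51 and -4.34, -4.45 and -4.36 at 6 h and -4.91, -5.06 and -5.74 and -4.65, -4.17 and -4.75 at 24 h. Its change was -2.49 ± 0.44 (SE), a fold not limited by background, and its 3 arrays of concentration 1 for 6 h were the highest of the 20.

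Comparisons that use neither the untreated arrays nor those of concentration 1 for 6 h were tested with limma and Benjamini-Hochberg adjustment over all probes. Their arrays did not choose the family, but they are not fully independent of that choice. Of the 44 measured members, 18 were kept only through concentration 1 for 6 h, and each probe's spread was estimated over all 7 groups. There were 6 such comparisons, and no member passed an adjusted p of 0.05 in any of them. With slide as a random block 4 of 44 members passed for 1 against 1/5 at 24 h and 12 of 44 for 24 h against 6 h at 1/5, where 28.2% and 44.6% of all probes did. With array weights 1 to 19 members passed in 5 of the 6, where 1.03% to 51.4% of all probes did. Between 1/5 and 1/25 at 6 h the median change of the 44 measured members was 0.31 (range -0.85 to 2.03), 34 were higher at 1/5 against 61.3% of all probes, and 0% of all probes passed. Of the members 3, or 6.82%, had an unadjusted p under 0.05, against 2.84% of all probes. In stretch B 11 of 12 were higher at 1/5, with a median of 0.92, and in stretch A 15 of 20, with a median of 0.24. Neither stretch held a member past the threshold. The 1/5 arrays lay on slide 2 and the 1/25 arrays on slides 3 and 4, scanned on another day. Concentration cannot be told apart from slide and scan day here.

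From 6 h to 24 h at 1/5 the members' median was -0.66, against -0.15 over all probes, and 36 of 44 were lower at 24 h against 55.2% of all probes. Of the 44, 19 were well above background on no array at 24 h and 4 on none at 6 h, so their fitted changes rest on signals at background. The 6 h arrays lay on slide 2 and the 24 h arrays on slide 5, scanned on another day. Time cannot be told apart from slide and scan day. In 8 members the 3 arrays at 24 h lay below the 3 at 6 h, against 14.1% of all probes. The smallest adjusted p was 0.111, for LOC301816 (log2 change -1.38 ± 0.49 (SE), with 2 arrays at 6 h and none at 24 h well above background), and 0.125% of all probes passed. An unadjusted p under 0.05 was found in 5 members, or 11.4%, against 32.8% of all probes. This comparison includes the array of lowest signal, and without it 43 of 44 members were lower at 24 h, with a median of -0.87 and none past the threshold. With quantile normalization in place of the 75th percentile, 22 of 44 were lower and the median was -0.00. At 1/25 the median from 6 h to 24 h was -0.32, 29 of 44 were lower against 52.7% of all probes, and 0% of all probes passed. Here 4 members, or 9.09%, had an unadjusted p under 0.05, against 10.4% of all probes. Well above background on no array of the group were 11 of the 44 at 24 h and 6 at 6 h. The smallest adjusted p was 0.402, for the first probe of LOC367632 (log2 change -1.52 ± 0.53 (SE)). Its direction at 1/25 matched that of the members' median, which turned to 0.12 under quantile normalization and 0.03 under median scaling.

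At 24 h the 3 concentrations were compared with each other. Concentration 1, on slide 4, shared no slide with 1/5 or 1/25, on slides 5 and 6, so there concentration cannot be told apart from slide. The members' median was -0.13 for 1 against 1/5, 0.16 for 1/5 against 1/25 and -0.05 for 1 against 1/25, with all-probe medians of 0.03, 0.16 and 0.10. Of the 44, 20, 25 and 21 were higher at the higher concentration, against 51.5%, 58.3% and 56.6% of all probes. An unadjusted p under 0.05 was found in 1, 0 and 1 members, or 2.27%, 0% and 2.27%, against 20.8%, 6.52% and 5.02% of all probes. The shares of all probes past the threshold were 0%, 0.00285% and 0.00285%. The smallest adjusted p over these 3 comparisons was 0.189, for Spin2a at 1 against 1/5 (log2 change -1.23 ± 0.50 (SE)). On slide 5, which held 3 arrays of 1/5 and 1 of 1/25, the median difference was 0.51 over members and 0.32 over all probes.

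**Figure D4:**
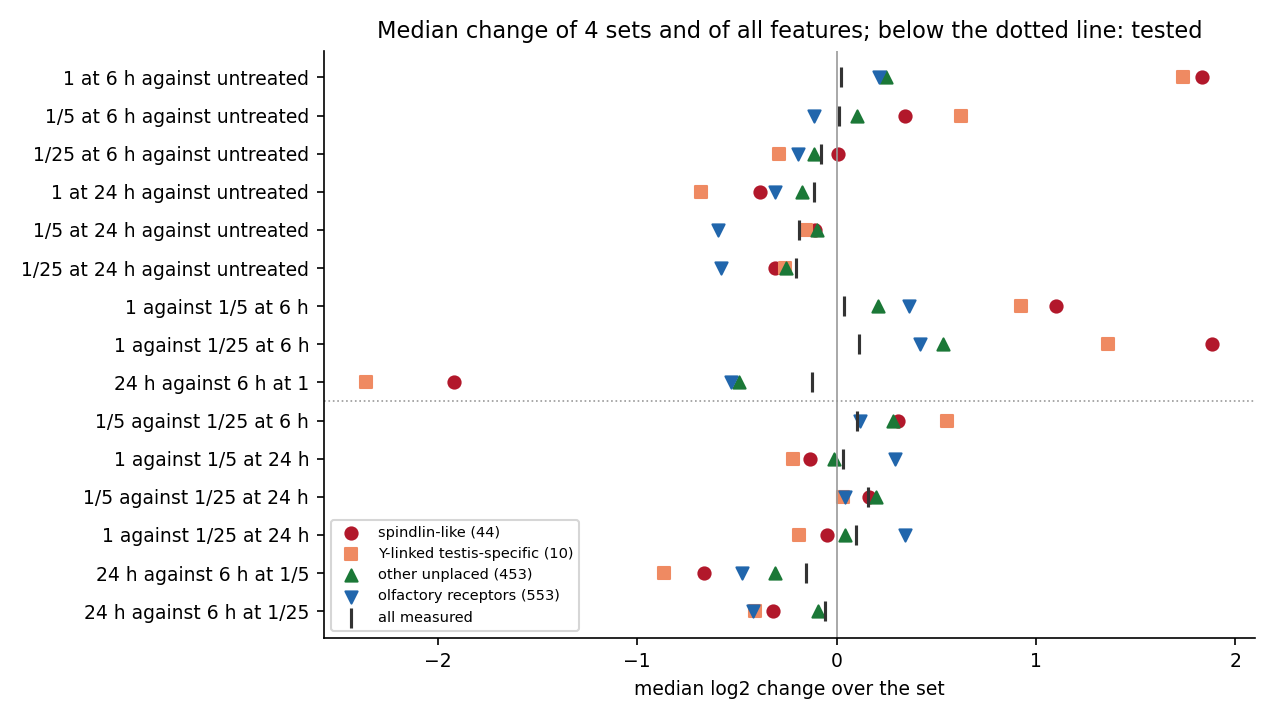
Median log2 change over the measured probes of 4 sets and over all probes, for each of the 15 comparisons. The 6 below the dotted line use none of the arrays that chose the family. At concentration 1 for 6 h against untreated cultures the spindlin-like family has a median of 1.83, the Y-linked testis-specific set 1.74, olfactory receptors 0.21 and other unplaced probes 0.25. The other unplaced probes include some of the Y-linked set.

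Genes just outside the text rule were read for comparison. Spin1, the gene of the oocyte spindlin (A_44_P553105, chromosome 17), had -2.41 and -3.08 in untreated cultures and -1.08, -2.33 and -2.86 at concentration 1 for 6 h, a change of 0.65 ± 0.53 (SE). Its groups overlapped. The probe joins stretch A by sequence. LOC682571, described as similar to spindlin, changed by -0.45 ± 0.32 (SE), and LOC294635, now the pseudogene Spin1-ps1, by -0.03 ± 0.45 (SE). The probe described as a spindlin homolog (LOC301856, A_44_P497091), which joins stretch C, changed by 2.10 ± 0.94 (SE). Spin4 (A_44_P227382) changed by -0.17 ± 0.91 (SE). The array also uses the names Spin2a and Spin2b for 4 probes that its descriptions identify as serine protease inhibitors, and these were left out.

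A further 14 probes are described as Y-linked testis-specific or as the spermiogenesis-specific transcript on the Y, the rat relatives of mouse Ssty, and this set was chosen after values were seen. Of these, 10 were measured, all 10 were higher at concentration 1 for 6 h than in untreated cultures, and their median change was 1.74. From 6 h to 24 h at concentration 1 the median was -2.36, with 1 of the 10 above 0. In the tested comparisons none of the 10 passed. A search of the whole array for probes that match a member over a run scoring at least 20 found 11 outside the text rule, of which 10 belonged to this set and the other was the spindlin homolog. LOC685429, one of the 10, shares 47 bases with LOC302012 of stretch A. These 2 are shown with the shared run in capitals.
LOC302012 (A_44_P131094, chrUn:29958717-29958883, minus strand): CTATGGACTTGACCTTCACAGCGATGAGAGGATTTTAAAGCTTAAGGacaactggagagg
LOC685429 (A_44_P550952, chrUn:29549428-29549487, minus strand): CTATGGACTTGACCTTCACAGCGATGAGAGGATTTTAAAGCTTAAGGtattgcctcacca
LOC302012 changed by 1.36 ± 0.79 (SE) and LOC685429 by 2.22 ± 0.73 (SE). RGD1560580, which matches LOC302228 of stretch C at 55 of 60 bases, changed by 1.79 ± 0.55 (SE), while LOC302228 changed by 1.26 ± 0.58 (SE). LOC691332 matches LOC288640 at 53 of 60 bases, and both had small changes, 0.58 ± 1.23 (SE) and 0.36.

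Olfactory receptors, another family of many copies, and the other probes on unplaced sequence were read beside the spindlin-like family. Of 1138 probes described as olfactory receptors, 553 were measured, with a median change of 0.21 at concentration 1 for 6 h and 11.4% over 1. The 507 other probes on unplaced sequence include some of the Y-linked testis-specific set, such as LOC685429. Of the 507, 453 were measured, with a median of 0.25 and 17.0% over 1, against 4.22% of all probes. The difference from the family, which was chosen from this comparison, was not tested.

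Spin1, Spin4 and genes that act with spindlins were listed as background. The first list held the spindlins Spin1 and Spin4, given above, with Spindoc, Prmt2 and Prmt6. All 5 were measured and none passed the threshold in any of the 15 comparisons. Prmt2 and Prmt6, arginine methyltransferases, changed by 0.68 ± 0.66 (SE) and 0.41 ± 0.40 (SE) at concentration 1 for 6 h, and the list's median was 0.41. Of 12 genes of H3K4 methyltransferase complexes 9 were measured, none passed in any comparison, and the median was -0.01. Setd1a, a catalytic subunit, had 0.75 ± 0.52 (SE), Kmt2b, another, 0.35 ± 0.80 (SE), and Wdr5, a shared scaffold, 0.20 ± 0.43 (SE). Of 13 readers and demethylases of H3K4me3 9 were measured, none passed in any comparison, and the median was 0.30. Kdm5c, an X-linked demethylase of this mark, had 1.71 ± 1.14 (SE), Ing5, a PHD-finger reader, -0.52 ± 0.50 (SE), and Ing2, another, 0.39 ± 0.45 (SE).

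Since relatives of the family are testis genes, markers of germ cells were read beside it. Of 14, 8 were measured and none passed at concentration 1 for 6 h. Their changes ran from -0.64 to 0.30, with a median of -0.08, and their summed level was 3.12 to 3.33 in untreated cultures and 2.96 to 3.11 at concentration 1 for 6 h. Most of this sum came from Prm1 and Odf1, with mean log2 signals of 2.31 and 1.37 in untreated cultures. Whether these probes read germ cell transcripts in heart cultures was not tested. Ddx4, Sycp1, Mael and Tnp1 had a probe but were not measured. Markers of red blood cells, 8 measured of 10, had summed levels of 1.60 to 1.77 and 1.84 to 1.96 in these groups. One of them, Rhag, which encodes a membrane glycoprotein of red cells, was the third probe past the threshold beside the 2 spindlin-like ones, with a change of 4.39 ± 0.63 (SE). The other 7 lay between -0.67 ± 0.58 (SE) for Ahsp and 0.91 ± 0.46 (SE) for Slc4a1. Rhag was at background on both untreated arrays and well above it on all 3 arrays of concentration 1 for 6 h. Endothelial markers summed to 1.25 to 1.33 and 0.83 to 1.35, leukocyte markers to 2.21 to 2.21 and 2.07 to 2.32, and smooth muscle markers to 1.80 to 2.05 and 1.82 to 1.97. Their part in the family's difference was not tested.

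Over the 20 arrays, each measured member correlated with the mean of the other 43 at a Pearson r of 0.32 to 0.93, with a median of 0.76. The points share array, slide and scaling, and the 3 arrays that chose the family are among them. The 5 named genes outside the family whose signal followed its mean most closely were Inhca (r = 0.91), Sec14l2, a lipid-binding protein (0.88), Myo1c, an unconventional myosin (0.87), Bicral (0.87) and Ms4a7 (0.87), among 34726 probes with a median r of 0.13. Their changes at concentration 1 for 6 h were 1.23, 1.69, 1.55, 4.05 and 0.70. Among the 50 probes most like the family, 10 lay on unplaced sequence and 2 belonged to the Y-linked testis-specific set.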

How the data were processed

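Total RNA was amplified, labelled with Cy3 and hybridised to 20 one-colour Agilent rat arrays, per the labels' protocols. The deposited scanner files hold the processed signal intensity of 43379 spots per array, made by the authors with Feature Extraction 9.5.3.1, per the file headers. The authors' deposited series table holds a ratio per probe, which matched the processed signal over the array's median over the mean of the 2 untreated arrays (log2 Pearson r at least 0.998 on every array), and it served as an alternative.

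Values used here are log2 processed signal minus each array's 75th percentile. Control spots and spots marked as outliers were left out, and spots of 1 probe were averaged. Probes that some group had well above background on each of its arrays entered 1 limma fit over the 7 groups (limma 3.58.1, R 4.3.3), with Benjamini-Hochberg adjustment over all of them and a threshold of 0.05. The fit was tested on simulated data. Tables and sequence matching used Python 3.11.15 with pandas 2.3.3 and numpy 2.4.6. Probe coordinates are those of the files (rn3).

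The members, lists and comparisons were chosen with earlier results of these data known. Probes were joined into stretches by sequence alone, after their values had been seen, and the Y-linked set and the search for matching probes were also chosen then. Given array by array were the 6 highest and 3 lowest changes at concentration 1 for 6 h, the 3 brightest members and every member past the threshold. Each list gene was read from its brightest measured probe. Alternatives covered background correction (normexp, offset 50), scaling, the filter, marked spots, blocks, array weights, the samples in the fit, the deposited table and each array left out. Scan day as a block, and the array of lowest signal left out of comparisons without its group, were chosen after seeing the data.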

Additional observations from a re-analysis of the deposited data

How the results depend on the processing

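The counts of members past the threshold and the medians that answer a comparison were recomputed under 271 alternatives, and 250 stayed close, within 1.5 times for a count or within 1 pooled SD of the arrays' medians (0.52) for a median. Array weights gave 2 members for 1/5 against 1/25 at 6 h, 1 for 1 against 1/5 at 24 h, 9 for 1 against 1/25 at 24 h, 19 for 24 h against 6 h at 1/5 and 10 at 1/25, where 1.03%, 28.7%, 50.4%, 41.9% and 51.4% of all probes passed. Slide as a random block gave 4 for 1 against 1/5 at 24 h and 12 for 24 h against 6 h at 1/5, or 9.09% and 27.3% of members against 28.2% and 44.6% of all probes. The cause was not tested. Leaving out 1 array gave 0 to 1 for 1 against 1/5 at 24 h and 0 to 2 for 24 h against 6 h at 1/5, the higher values without replicate 2 of 1/5 for 24 h, and 0 to 1 for 24 h against 6 h at 1/25, the higher value without replicate 2 of 1/25 for 24 h. The shares of all probes in these fits are not given, and nothing is read from the counts. The 12 and 19 members at 1/5 were all lower at 24 h.

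At concentration 1 for 6 h against untreated cultures the members' median was 1.13 with normexp and 1.17 over the 26 members well above background on every array of 2 groups, where fewer members are read. Against 1/25 at 6 h it was 1.08 and 1.19 under these and 1.34 with quantile normalization, with 1.24 to 2.18 without single arrays. From 6 h to 24 h at concentration 1 it was -1.38 with quantile normalization and -1.30 over those 26. The 24 h medians against untreated cultures turned sign with the scaling: at 1/5 0.48 with quantile normalization and 0.41 with median scaling, and at 1/25 0.47 with quantile normalization. Median scaling moved the all-probe median of these 2 comparisons to 0.33 and 0.30. Replicate numbers did not pair the samples (median r of deviations -0.03 over 57 same-numbered pairs), and with a replicate block the 6 tested comparisons again gave 0 members and the median at concentration 1 for 6 h was 1.57. Slide as a fixed block could be fitted for 4 comparisons. Dim signals limit what can be read, since 21 of 44 measured members had only a bound in untreated cultures and 11 at concentration 1 for 24 h. On no array well above background were 19 at 1/5 and 11 at 1/25 for 24 h, and 4 at 1/5 and 6 at 1/25 for 6 h.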
